A study of Mus musculus with 52 samples.

Results

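Cytochrome P450 families 2, 3 and 4 were followed in wild-type (WT) mice and in mice homozygous for a deletion of the lncRNA locus Tug1 (Tug1-/-), with liver as the main tissue. The members were set by a rule on names, and the choice was made with earlier results of these data known. It takes protein-coding genes called Cyp, then 2, 3 or 4, a single letter and a number. This rule found 72 of 20112 protein-coding genes in the 7 tissues read here, 48 of family 2, 7 of family 3 and 17 of family 4. The liver table listed 60 of them. The rule leaves out 5 protein-coding genes with longer names, among them Cyp4a12a, Cyp4a12b and Cyp2d37-ps.

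All animals were male, and the Tug1-/- allele (Tug1_tm1.1Vlcg) carries lacZ in place of the gene body, with the Tug1 promoter and first exon kept. Liver, eyes, heart, spleen and mouse embryonic fibroblasts (MEFs, primary cells at passage 2) had 3 WT and 3 Tug1-/- samples each, and prostate had 3 and 2. Both genotypes of these tissues share a C57BL/6J/129S6 background labelled N3-C57BL/6J without Neo. Testes came from 4 WT, 4 Tug1-/- and 3 rescue mice, and there the labels differ: WT has no Neo, whereas Tug1-/- and rescue list Neo and LacZ. Rescue mice were Tug1-/- with a Tug1 transgene, tg(Tug1), driven through the ubiquitous CAGs-rtTA3 activator by doxycycline in the food. MEFs came from littermate embryos at mid-gestation, and the ages of the animals that gave the organs sequenced are not given in the sources used here. The values used are the authors' means of each group, in TPM (read counts scaled for gene length and for the depth of the library). The tables give no values of single samples, and the authors' standard errors and test results were not used, so no spread between animals is given. No test was made, and every difference below is a description of group means.

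Cytochromes P450 are haem enzymes of the endoplasmic reticulum that insert oxygen into small lipophilic molecules. Families 2 and 3 oxidise drugs, plant compounds, steroids and arachidonic acid, and family 4 mostly hydroxylates the far end of fatty acids and eicosanoids. In mouse liver many are controlled by the nuclear receptors CAR, PXR and PPAR alpha, several differ between the sexes under the pattern of growth hormone secretion, and others are kept to hepatocytes near the central or the portal vein.

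The 4 genes with the highest WT level in liver carried most of the family's transcripts. Cyp2e1, which oxidises ethanol and acetone, had a mean of 8751 TPM in WT and 6857 TPM in Tug1-/- liver. Cyp3a11, the main drug-metabolising member of family 3, had 2827 and 2016 TPM. Cyp2d9, a male-biased testosterone hydroxylase, had 2139 and 1997 TPM, and Cyp2f2, which activates naphthalene, had 1548 and 1545 TPM. Both Cyp2e1 and Cyp3a11 were lower in Tug1-/- liver, whereas Cyp2d9 and Cyp2f2 had log2 ratios of -0.10 and -0.003. The next 6 in WT liver were Cyp2c29 (1198 TPM), Cyp2d26 (1197 TPM), Cyp3a25 (1115 TPM), Cyp2a5 (899.7 TPM), Cyp2j5 (861 TPM) and Cyp2d10 (844 TPM), and in Tug1-/- liver they had 821, 1011, 809.7, 783, 829 and 757 TPM. All 10 were lower in Tug1-/- liver. The 60 members summed to 27191 TPM in WT and 22509 TPM in Tug1-/- liver, or 2.72% and 2.25% of all transcripts.

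**Figure D1:**
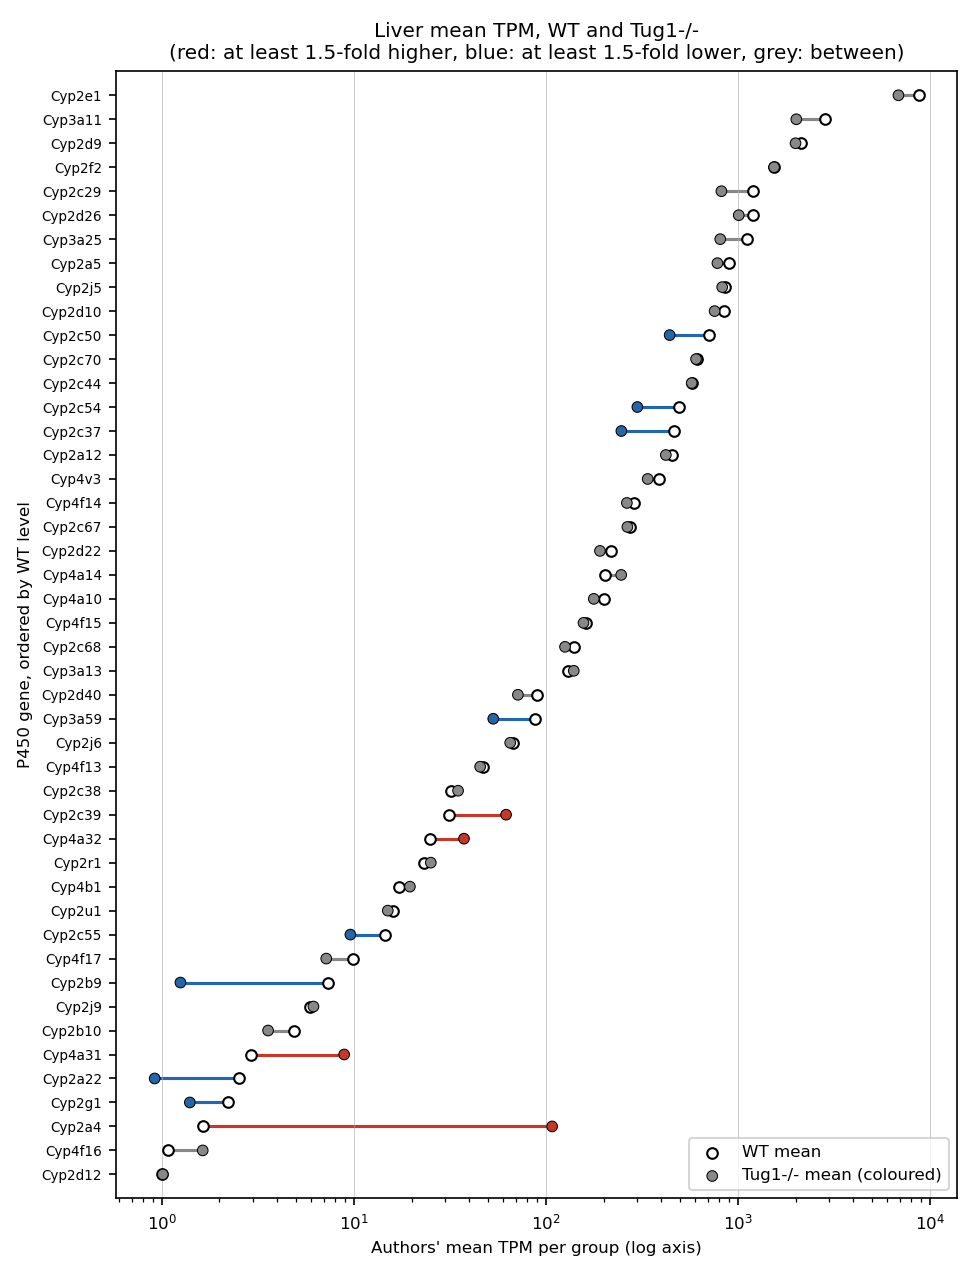
Mean TPM on a log axis in WT (open circles) and Tug1-/- liver (filled circles) for the 46 P450 genes that averaged at least 1 TPM, ordered by WT level. The line for Cyp2a4 runs from 1.64 to 107.9 TPM and is the longest, the line for Cyp2b9 runs from 7.32 down to 1.253 TPM, and most abundant genes show short lines to the left.

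Ratios were taken as log2 of (Tug1-/- mean + 0.1 TPM) over (WT mean + 0.1 TPM) for genes that averaged at least 1 TPM over both groups, and a gene was counted as higher or lower at 1.5-fold. The minimum is on the average, so a gene can pass through the group where it is higher while under 1 TPM in the other. Counts of higher and lower genes include such cases, among them Cyp2a22 in liver, Cyp2j13 in prostate, Cyp2t4 in spleen and Cyp4f14 in rescue testes. In liver 46 members passed this minimum. Of these, 4 were at least 1.5-fold higher and 8 at least 1.5-fold lower in Tug1-/- liver, while 34 lay between. Among all 10719 protein-coding genes that passed, 2.49% were higher and 1.61% were lower by the same rule. Of the 4 higher members, Cyp2a4 and Cyp4a32 share over 10% of their read-length sequence with another P450 transcript, and 2 remain without such members. The shares among the members were 8.70% higher and 17.4% lower. The median log2 ratio of the members was -0.12, beside 0.01 over all genes, and 34 of 46 members had a ratio below 0, whereas 53.0% of all genes had a ratio above 0. Of the 14 members below the minimum, 7 had ratios above and 7 below 0, 1 was past 1.5-fold higher and 4 past 1.5-fold lower, and they summed to 5.30 TPM in WT and 3.93 TPM in Tug1-/- liver. Among all 4417 protein-coding genes under that minimum in liver, 7.11% were past 1.5-fold higher and 3.96% past 1.5-fold lower.

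The gene with the greatest ratio of all 10719 genes was Cyp2a4, a female-biased testosterone hydroxylase. Its mean was 1.64 TPM in WT and 107.9 TPM in Tug1-/- liver, a log2 ratio of 5.96 or 62.1-fold. Its close relative Cyp2a5, a coumarin hydroxylase, had 899.7 and 783 TPM, a log2 ratio of -0.20. Both lie on the plus strand of chromosome 7. Their promoters are shown because these genes are nearly identical in sequence there and differed in ratio. The following are the 250 bases before the RefSeq start of each (GRCm38.p6, plus strand, chr7:26306942-26307191 for Cyp2a4 and chr7:26835089-26835338 for Cyp2a5), with capitals at the aligned positions where they differ.
Cyp2a4: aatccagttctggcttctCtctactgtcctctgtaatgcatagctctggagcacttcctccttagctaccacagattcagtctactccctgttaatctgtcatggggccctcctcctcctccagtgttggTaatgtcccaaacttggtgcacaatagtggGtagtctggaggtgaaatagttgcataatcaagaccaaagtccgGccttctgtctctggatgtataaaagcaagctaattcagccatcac
Cyp2a5: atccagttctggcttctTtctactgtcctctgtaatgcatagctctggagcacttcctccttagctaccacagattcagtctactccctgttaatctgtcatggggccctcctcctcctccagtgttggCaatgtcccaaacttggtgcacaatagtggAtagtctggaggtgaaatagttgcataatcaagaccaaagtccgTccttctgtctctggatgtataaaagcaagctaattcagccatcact

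These promoters were identical at 245 of 249 aligned positions (98.4%). The transcripts are alike too: 10.9% of the windows of read length in Cyp2a4 transcripts occur exactly in Cyp2a5. The authors counted uniquely mapped reads, so reads from such windows could be left out for both genes. As reads were sequenced in pairs, some may still have been placed through their mates. How many were left out was not measured. The mean normalised count of Cyp2a4 over the liver libraries was 1709, and that of Cyp2a5 was 31282. In the other tissues Cyp2a4 was listed in eyes and testes only, at 0.0332 TPM and 0.0573 TPM in WT and 0.0549 TPM and 0.0440 TPM in Tug1-/-.

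The other 2 subfamily 2a genes, Cyp2a12 and Cyp2a22, are also on chromosome 7. Cyp2a12, a steroid hydroxylase, had 455 TPM in WT and 422 TPM in Tug1-/- liver. Cyp2a22 had 2.52 and 0.920 TPM, 2.56-fold lower (log2 ratio -1.36). Between Cyp2a4 and Cyp2a5 lies Cyp2g1, best known from the olfactory mucosa, with 2.20 and 1.40 TPM (log2 ratio -0.62). Thus Cyp2g1, the nearest member listed in liver on this side, did not share the direction of Cyp2a4. The nearest listed member on the other side, Cyp2b9, a female-biased steroid hydroxylase, had 7.32 TPM in WT and 1.253 TPM in Tug1-/- liver, 5.49-fold lower. Its log2 ratio of -2.46 was the fourth lowest of all genes tested in liver. Cyp2b10, the classical target of CAR, had 4.87 and 3.58 TPM (log2 ratio -0.43). Cyp2b13, the closest relative of Cyp2b9, averaged under 1 TPM, with 0.236 and 0.0599 TPM. In this chromosome 7 cluster, from Cyp2s1 to Cyp2t4 (chr7:25802475-27158668), 8 of 11 listed genes passed the minimum, 1 was higher and 3 were lower.

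**Figure D2:**
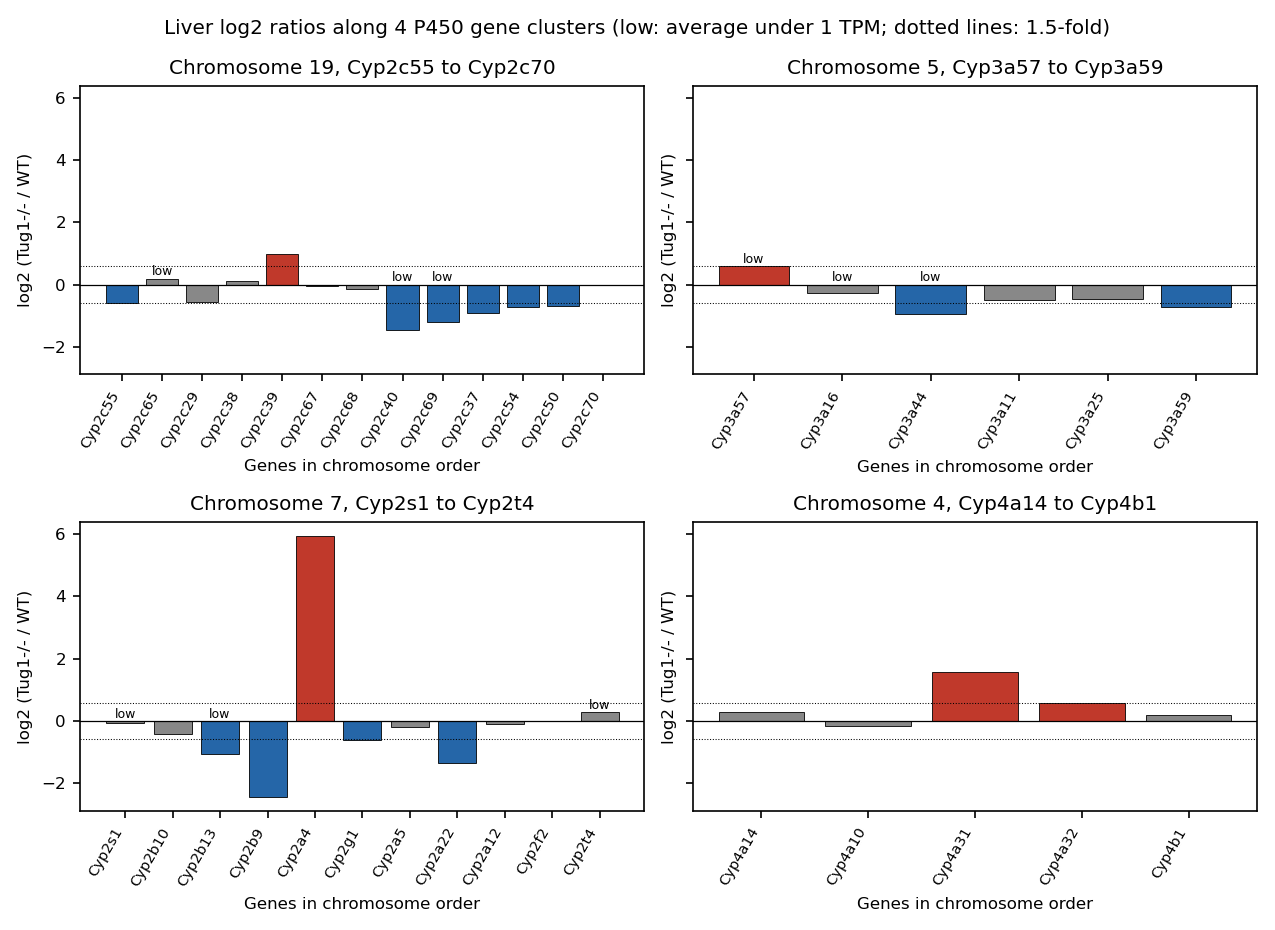
Liver log2 ratios (Tug1-/- over WT) of P450 genes in chromosome order in 4 clusters, with dotted lines at 1.5-fold. Red and blue bars are past 1.5-fold up and down, and "low" marks genes that averaged under 1 TPM. Cyp2a4 reaches 5.96 between Cyp2b9 at -2.46 and Cyp2g1 at -0.62, and Cyp2c37, Cyp2c54 and Cyp2c50 stand side by side between -0.90 and -0.68.

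The Cyp2c genes, many of which oxidise arachidonic acid and retinoids, are the largest subfamily. Of 11 that passed, 1 was higher and 4 were lower. In smaller subfamilies, 1 of 4 Cyp2a genes that passed was higher and 1 lower, 2 of 4 Cyp4a genes were higher and 1 of 2 Cyp2b genes was lower. The share past 1.5-fold was thus not highest in Cyp2c. Cyp2c37 had 462 TPM in WT and 247 TPM in Tug1-/- liver, 1.87-fold lower. Cyp2c54 had 492 and 299.8 TPM, 1.64-fold lower, and Cyp2c50 had 707 and 441.5 TPM, 1.60-fold lower. These genes are consecutive on chromosome 19, and all are abundant, with mean normalised counts of 11647, 12622 and 30189.6. Cyp2c29, at 1198 and 821 TPM, was 1.46-fold lower and so just short of the count, and Cyp2c55, at 14.5 and 9.61 TPM, was 1.503-fold lower and just inside it.

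Cyp2c39, a female-biased retinoic acid hydroxylase, went the other way, with 31.4 TPM in WT and 62.1 TPM in Tug1-/- liver (log2 ratio 0.98, 1.98-fold higher). Its neighbour Cyp2c38 had 32.2 and 34.9 TPM. Cyp2c70, which makes muricholic bile acids, had 610.4 and 606 TPM, Cyp2c44 had 578 and 575 TPM, Cyp2c67 had 275 and 266 TPM, and Cyp2c68 had 140.3 and 126 TPM. None of these 5 was past 1.5-fold. The female-biased genes Cyp2c40 and Cyp2c69 averaged under 1 TPM, with 1.05 and 0.317 TPM and with 0.618 and 0.212 TPM. They share 34.0% and 35.1% of their windows with other P450 transcripts, the highest shares among the members. Their unique counts therefore rest largely on read pairs that reach the remaining sequence. Over the chromosome 19 cluster (chr19:39007019-40187333), 10 of 13 listed genes passed, 1 was higher and 4 were lower, and the summed level was 3966 TPM in WT and 2915 TPM in Tug1-/- liver.

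Cyp2c37 and Cyp2c50 are shown next because they had low ratios together and both have a promoter entry in the reference table. Their 250 bases before the start (GRCm38.p6, plus strand, chr19:39992174-39992423 and chr19:40089429-40089678) have capitals where the aligned bases differ or where an inserted base within the alignment has no partner, and unaligned bases at the ends are in lower case.
Cyp2c37: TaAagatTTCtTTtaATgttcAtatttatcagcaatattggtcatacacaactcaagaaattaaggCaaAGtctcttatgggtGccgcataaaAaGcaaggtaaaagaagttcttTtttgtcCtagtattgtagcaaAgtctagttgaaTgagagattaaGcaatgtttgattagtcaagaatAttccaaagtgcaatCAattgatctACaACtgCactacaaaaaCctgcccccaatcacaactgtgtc
Cyp2c50: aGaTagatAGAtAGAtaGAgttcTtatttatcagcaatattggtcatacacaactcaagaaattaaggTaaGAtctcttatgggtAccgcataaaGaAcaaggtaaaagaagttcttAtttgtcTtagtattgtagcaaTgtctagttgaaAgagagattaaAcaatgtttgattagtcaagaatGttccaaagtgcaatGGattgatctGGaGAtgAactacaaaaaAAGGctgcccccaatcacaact

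These were identical at 215 of 245 aligned positions (87.8%). The promoter table held 66 promoters of 59 members. The STAT5 motif TTCNNNGAA, searched on both strands in the 300 bases around each start, was present in 4 of the 66, those of Cyp2j11, Cyp2j12, Cyp4b1 and Cyp4f13, and in 8.30% of all 32851 promoters. Pairs of AGGTCA spaced by 1 base (AGGTCANAGGTCA) or by 4 bases (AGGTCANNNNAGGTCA) are the arrangements read by PPAR alpha and by CAR and PXR. Only these exact letters were searched, and they were in none of the 66 and in 0.0396% and 0.0152% of all promoters. Letters this rare would be missing from nearly any 66 promoters, so their absence says nothing about binding by these receptors. Cyp2c54, Cyp4a10, Cyp4a14 and Cyp4a31 had no promoter entry. None of these letters is therefore in the windows of Cyp2a4, Cyp2a5, Cyp2c37 and Cyp2c50.

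The Cyp3a genes, which oxidise many drugs and steroids, were lower at the top of their range. Beside Cyp3a11 (log2 ratio -0.49) and Cyp3a25 (-0.46), Cyp3a59 had 87.7 TPM in WT and 53.3 TPM in Tug1-/- liver, 1.65-fold lower. Cyp3a13, which lies apart from the others on chromosome 5, had 130.5 and 139.9 TPM. The female-biased genes Cyp3a16 and Cyp3a44 averaged under 1 TPM, and Cyp3a57 was at 0.0320 and 0.101 TPM. The 7 Cyp3a genes summed to 4161 TPM in WT and 3019 TPM in Tug1-/- liver, a log2 ratio of -0.46, the lowest of any subfamily above 100 TPM.

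Cyp4a genes, the fatty acid hydroxylases of liver, differed among themselves. Cyp4a31 had 2.90 TPM in WT and 8.92 TPM in Tug1-/- liver, 3.004-fold higher (log2 ratio 1.59). Cyp4a32 had 24.9 and 37.5 TPM, 1.51-fold higher and just inside the count. The abundant members moved less: Cyp4a14 had 204 and 247 TPM (log2 ratio 0.28) and Cyp4a10 had 200.2 and 178 TPM (-0.17). Windows shared with other P450 transcripts made up 17.8% of Cyp4a32, mostly with Cyp4a10, and 7.18% of Cyp4a31. The summed Cyp4a level was 432 TPM in WT and 471 TPM in Tug1-/- liver.

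Other subfamilies held no gene past 1.5-fold in liver apart from Cyp2g1. All 6 Cyp2d genes that passed stayed within it, with a median log2 ratio of -0.17 and a summed level of 4489 TPM in WT and 4029.6 TPM in Tug1-/- liver. The epoxygenase Cyp2j5 had 861 and 829 TPM, and Cyp2j6 had 67.8 and 65.3 TPM. In subfamily 4f, Cyp4f14 had 288.8 and 264 TPM, and Cyp4f15 had 161 and 157 TPM. Cyp4f16, at 1.07 and 1.64 TPM (1.48-fold higher), lay just outside the count, and Cyp4f17 had 9.88 and 7.20 TPM. Cyp4v3, a fatty acid hydroxylase, had 389.7 and 339 TPM. The vitamin D hydroxylase Cyp2r1 had 23.3 and 25.2 TPM, Cyp2u1 had 16.0 and 15.0 TPM, and Cyp4b1 had 17.2 and 19.6 TPM.

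Sex-biased liver genes were read as 2 lists, and the P450 genes were at both ends of one of them. Of 23 female-biased genes, 19 were listed in liver and 8 passed the minimum. Cyp2a4, Cyp2c39 and Cyp17a1 were higher, Cyp2b9 and Acot3 were lower, and the median log2 ratio of these 8 was 0.22. Over all 19 listed genes, 11 of them averaging under 1 TPM, the median turned to -0.16, with 8 ratios above and 11 below 0, so the list has no direction that holds at both settings. Cyp17a1, a steroid hydroxylase outside the families chosen, had 6.75 TPM in WT and 34.2 TPM in Tug1-/- liver. Acot3, a peroxisomal acyl-CoA thioesterase, had 16.9 and 5.78 TPM. All 18 male-biased genes passed, 1 was lower, none was higher, and the median was -0.10. The lower gene was Serpina12, which encodes the adipokine vaspin, with 38.2 and 17.3 TPM, whereas the male-biased P450 genes Cyp2d9, Cyp4a12a, Cyp4a12b, Cyp7b1 and Cyp2u1 had log2 ratios from -0.18 to -0.04.

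Targets of the nuclear receptors did not share a direction. Of 6 CAR targets that passed, Gadd45b was higher and Cyp2c55 was lower, and of 6 PXR targets only Cyp2c55 was past 1.5-fold. The median log2 ratios were -0.31 and -0.23, and Cyp2b10 and Cyp3a11, the members most used as readouts of CAR and PXR, had -0.43 and -0.49. Among 12 PPAR alpha targets, 3 were higher (Cyp4a31, Cyp4a32 and Fgf21), 1 was lower (Vnn1) and the median was 0.04. Fgf21, a hormone of fasting, had 1.71 TPM in WT and 8.29 TPM in Tug1-/- liver, and Vnn1, a pantetheinase, had 35.9 and 9.87 TPM.

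**Figure D3:**
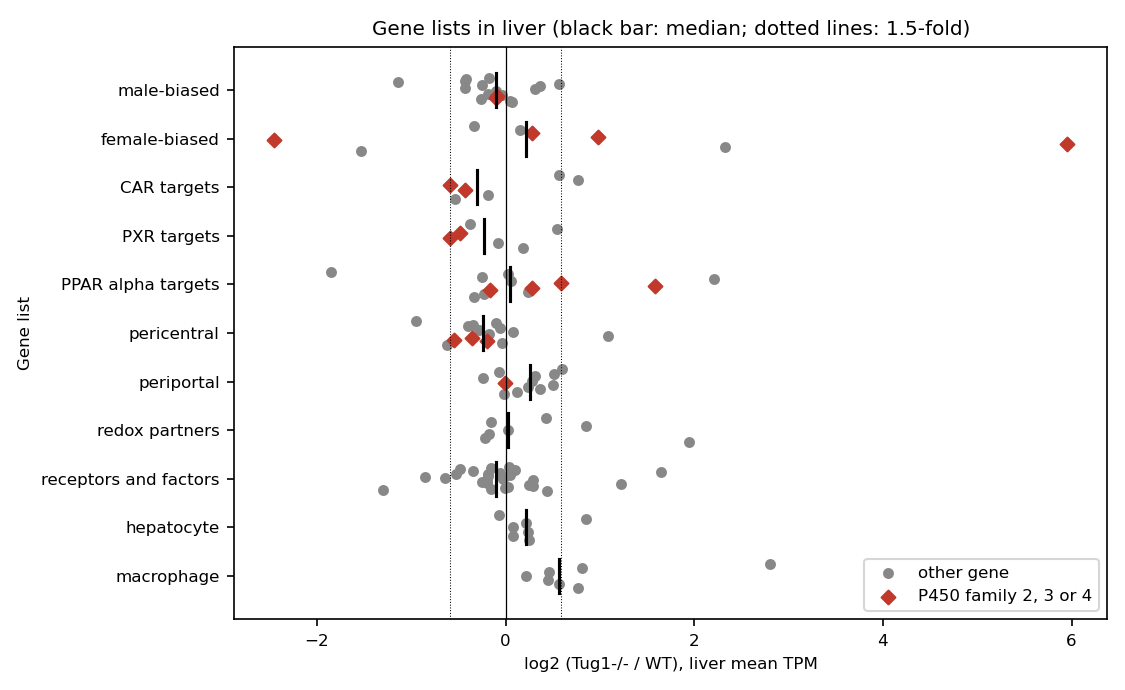
Liver log2 ratios (Tug1-/- over WT) of genes averaging at least 1 TPM in 11 gene lists. Diamonds are P450 genes of families 2, 3 and 4, circles are other genes, black bars are medians and dotted lines mark 1.5-fold. The female-biased list spans Cyp2b9 at -2.46 to Cyp2a4 at 5.96, the pericentral median is -0.24, the periportal median 0.26 and the macrophage median 0.57.

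The genes that supply P450 enzymes with haem and electrons were higher at only a few points. Alas1, which makes the first step of haem synthesis, had 60.8 TPM in WT and 234.3 TPM in Tug1-/- liver, 3.85-fold higher. Hmox1, which breaks haem down, had 19.5 and 35.3 TPM, and Por, the reductase that passes electrons to every microsomal P450, had 169.9 and 228 TPM (1.34-fold). The other 4 of 7, Cyb5a, Cyb5b, Cyb5r3 and Pgrmc1, lay between -0.22 and 0.02. Among 27 receptors and other regulators of these genes 26 passed, 2 were higher and 3 were lower, with a median of -0.11. Onecut1 had 2.39 and 7.69 TPM and Foxa3 had 34.7 and 80.8 TPM, both liver transcription factors. The repressor Bcl6 had 20.1 and 8.10 TPM, Nr0b2, a corepressor of bile acid synthesis, had 59.9 and 33.0 TPM, and the clock repressor Nfil3 had 18.3 and 11.6 TPM. The receptors themselves differed less, with log2 ratios of 0.04 for Nr1i2 (PXR), -0.53 for Nr1i3 (CAR) and -0.34 for Ppara.

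Genes kept to one zone of the liver lobule differed in median. Of 14 pericentral genes, 12 had ratios below 0 and the median was -0.24. Cyp2e1, Cyp2c29 and Cyp2a5 were among these, Axin2 and Tbx3, markers of Wnt-responding cells at the central vein, were past 1.5-fold lower (3.09 and 1.97 TPM, 9.15 and 4.69 TPM), and Cyp7a1, the first enzyme of bile acid synthesis, was higher (39.2 and 83.3 TPM). Of 12 periportal genes, 8 had ratios above 0, the median was 0.26 and only Sds passed 1.5-fold. Cyp2f2, the member in the periportal list, was at -0.003. Among the 27 other P450 genes of the series, 16 passed in liver, 3 were higher (Cyp17a1, Cyp7a1 and Cyp39a1), 3 were lower (Cyp26b1, Cyp46a1 and Cyp8b1) and the median was -0.03.

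Markers of liver cell types were measured beside these results, since in bulk tissue fewer cells of a type and less RNA per cell cannot be told apart. Of 7 hepatocyte genes only Tat passed 1.5-fold (1681 TPM in WT and 3038 TPM in Tug1-/- liver), and albumin (Alb) had 97035 and 102474 TPM. All 7 macrophage genes were higher in mean, 3 of them past 1.5-fold, with Marco at 3.56 and 25.3 TPM, and their summed level was 282 TPM in WT and 433 TPM in Tug1-/- liver. Of 5 sinusoidal endothelial genes Lyve1 was past 1.5-fold (6.28 and 9.58 TPM), and no cholangiocyte, stellate cell, erythroid or fibroblast gene was, with medians of 0.21, 0.17, -0.001 and 0.31. Markers of the other organs averaged under 1 TPM in liver or were not listed there, apart from Cyp17a1, which stands in the Leydig cell list. The part of the macrophage genes in the P450 ratios was not tested.

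Tug1 itself was checked in each tissue. Its WT means ranged from 10.1 TPM in liver to 57.5 TPM in eyes, its Tug1-/- means from 0.00832 TPM in liver to 0.885 TPM in testes, and the rescue testes mean was 1.60 TPM. Each tissue held its own markers: Alb in liver, Cryaa in eyes, Myh6 in heart, Cd79a in spleen, Pbsn in prostate, Col1a1 in MEFs, and Prm1 and Prm2 in testes. The mean normalised counts summed to between 38666994 and 48341823 per tissue outside testes.

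Across tissues the family is first of all a liver family. In WT, 43 members had their highest mean in liver, 7 in eyes, 4 in testes, 2 in spleen, 1 in heart and 1 in prostate, and 14 were under 1 TPM wherever they were listed. Of the 47 members at 1 TPM or more in WT liver, 27 reached that level in no other tissue. The members summed to 419.7 TPM in WT eyes, 282 TPM in spleen, 128 TPM in testes, 119.7 TPM in prostate, 117 TPM in heart and 93.5 TPM in MEFs. Levels in testes come from a separate table.

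**Figure D4:**
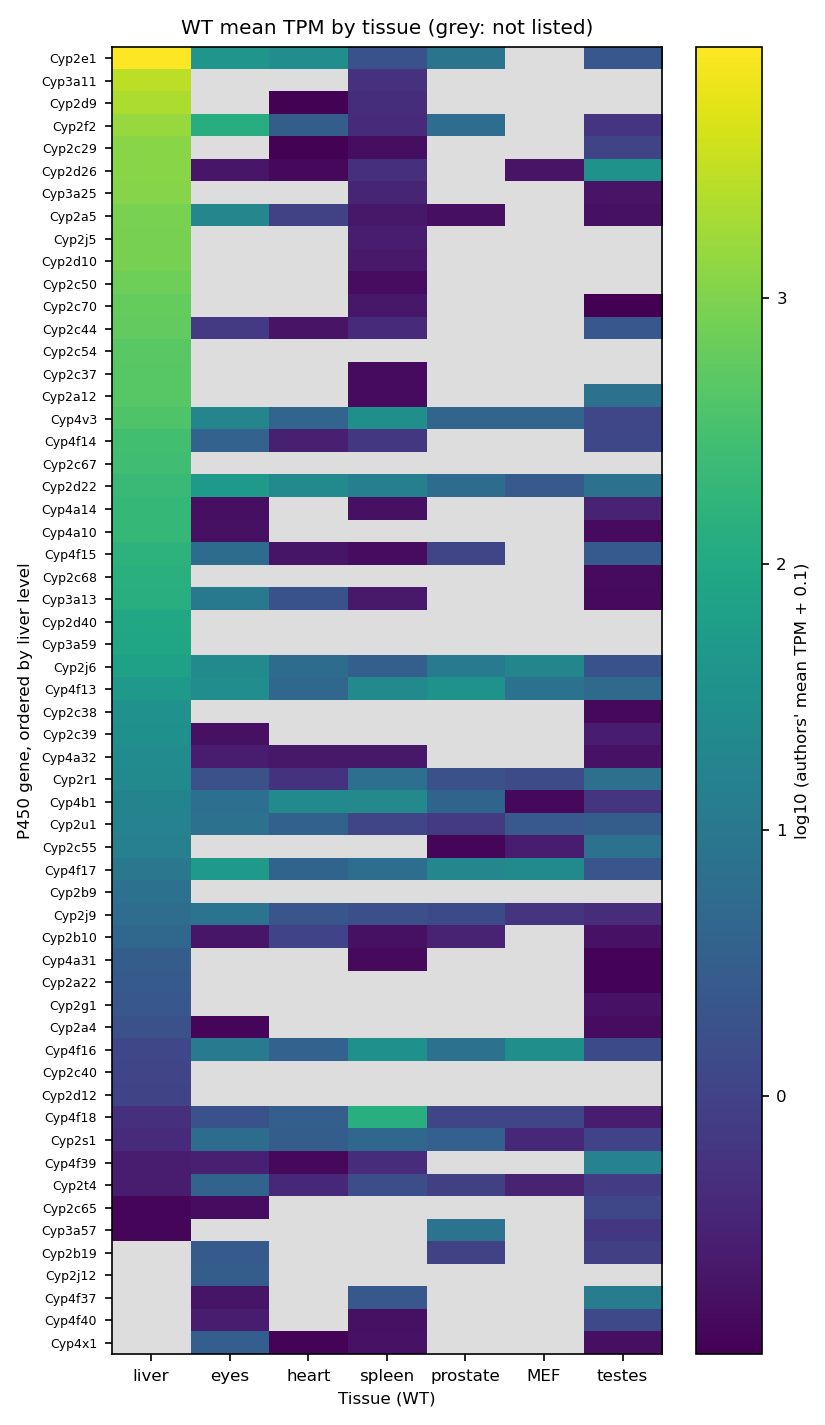
WT mean TPM (log10 scale, 0.1 TPM added) of the 58 P450 genes that reached 1 TPM in at least 1 tissue, ordered by liver level, with grey where a gene is not listed. The liver column is bright down most of its length, Cyp4f18 is brightest in spleen at 129 TPM, and 6 genes are at 1 TPM or more in every column.

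The 6 members at 1 TPM or more in all 7 tissues were Cyp2d22, Cyp2j6, Cyp4f13, Cyp4f16, Cyp4f17 and Cyp4v3. Cyp4f16 had its highest WT mean in spleen (31.7 TPM) and its lowest in liver (1.07 TPM), whereas Cyp4v3 ran from 389.7 TPM in liver to 1.10 TPM in testes. Cyp2d22 ran from 217 TPM in liver to 2.37 TPM in MEFs, Cyp2j6 from 67.8 TPM in liver to 1.73 TPM in testes, Cyp4f13 from 47.3 TPM in liver to 4.59 TPM in heart, and Cyp4f17 from 46.6 TPM in eyes to 1.97 TPM in testes. None of these 6 was past 1.5-fold between genotypes where it averaged at least 1 TPM. The only case under that minimum was Cyp4f16 in testes (1.24 TPM in WT and 0.732 TPM in Tug1-/-).

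In eyes 22 members passed, 1 was higher and 1 was lower, where 2.61% and 1.45% of 15076 genes were higher and lower. The members highest in WT eyes were Cyp2f2 (122 TPM in WT and 159 TPM in Tug1-/-), Cyp4f17 (46.6 and 37.9 TPM) and Cyp2d22 (45.6 and 46.5 TPM). Cyp2e1 had 39.1 TPM in WT and 181 TPM in Tug1-/- eyes, 4.63-fold higher, the eleventh highest ratio of all genes tested there. Cyp2b19, an epoxygenase of skin, had 2.58 and 1.42 TPM, 1.76-fold lower.

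In prostate 16 members passed, 7 were higher and none was lower, where 3.89% and 0.48% of 12487 genes were higher and lower. The 3 members highest in WT were Cyp4f13 (34.0 TPM in WT and 30.4 TPM in Tug1-/-), Cyp4f17 (19.8 and 17.9 TPM) and Cyp2j6 (10.7 and 13.3 TPM), none of them past 1.5-fold. Cyp2e1 had 8.08 and 62.2 TPM, 7.62-fold higher, again the eleventh highest ratio of its tissue. Cyp2j13 had 0.793 and 3.43 TPM, 3.96-fold higher, and passed the minimum only through its Tug1-/- level. Cyp4f15 had 1.06 and 2.19 TPM, 1.97-fold higher. Cyp2f2 (6.08 and 11.2 TPM), Cyp4b1 (4.07 and 7.22 TPM), Cyp3a57 (7.90 and 13.7 TPM) and Cyp2r1 (1.68 and 2.82 TPM) were between 1.64-fold and 1.82-fold higher. The prostate marker Pbsn had 65995 and 58591 TPM. The seminal vesicle genes Svs2 and Svs5, from the gland beside the prostate, had 10039 and 30715.5 TPM and 9363 and 27896 TPM, and all 3 genes of that list were higher in mean. Macrophage genes summed to 197 TPM in WT and 304 TPM in Tug1-/- prostate, with 5 of 5 that passed higher in mean and 3 past 1.5-fold. Erythroid genes summed to 141 and 257 TPM, with 3 of 3 higher in mean and 2 past 1.5-fold. The part of these cell types in the P450 ratios of prostate was not tested.

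Adipocyte genes were measured beside Cyp2e1, a gene that fat cells also express. This list of 7 (Adipoq, Plin1, Cfd, Fabp4, Car3, Lep and Retn) was chosen after the Cyp2e1 values were seen. In eyes all 7 were past 1.5-fold higher, and their summed level was 389 TPM in WT and 1195 TPM in Tug1-/-. Other markers differed in eyes too: all 3 erythroid genes were past 1.5-fold higher, with sums of 590.1 and 1816 TPM, and all 5 macrophage genes above the minimum had ratios above 0, with sums of 757 and 974 TPM over the 6 listed. In prostate all 7 were higher as well, with 136 and 639 TPM in sum, Adipoq at 9.65 and 42.7 TPM. In heart, where Cyp2e1 had 27.8 and 20.2 TPM (log2 ratio -0.45), 6 passed the minimum, 5 were past 1.5-fold lower and the sum was 565 and 432 TPM. In testes 4 of 6 were higher and the sum was 38.5 and 56.3 TPM. In spleen, where Cyp2e1 was lower, 4 passed, Adipoq alone was past 1.5-fold lower (1.69 and 0.762 TPM), Fabp4 had a log2 ratio of 0.53 and the sum was 19.1 and 19.6 TPM. In liver the same list had only Fabp4 and Car3 above the minimum, Car3 being abundant there in its own right (3986 and 2391 TPM), and Cfd, the only other gene listed, was under 1 TPM. None of the 7 was at 0 in eyes, heart, prostate or testes. The part of fat and of these other cells in the Cyp2e1 ratios was not tested.

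**Figure D5:**
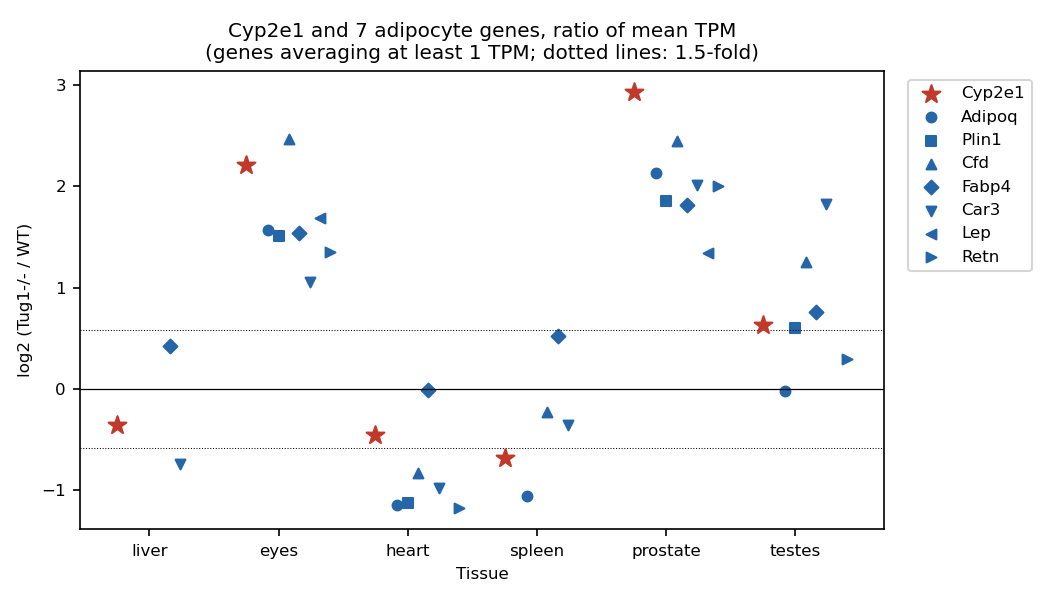
Log2 ratio of mean TPM (Tug1-/- over WT) for Cyp2e1 (stars) and 7 adipocyte genes (blue symbols) in 6 tissues, for genes averaging at least 1 TPM, with dotted lines at 1.5-fold. Cyp2e1 stands at 2.21 in eyes and 2.93 in prostate, where all 7 adipocyte genes are above 1, and at -0.45 in heart, where Fabp4 is at -0.01 and the other adipocyte genes are below -0.8.

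In heart 14 members passed, none was higher and 1 was lower, where 1.01% and 1.12% of 12095 genes were higher and lower. That gene was Cyp2f2, with 2.89 TPM in WT and 1.22 TPM in Tug1-/-, 2.27-fold lower. The members highest in WT heart were Cyp2e1, Cyp4b1, a hydroxylase of fatty acids and furans (24.2 and 30.8 TPM), and Cyp2d22 (23.3 and 24.9 TPM). The median log2 ratio over all genes was 0.11 in heart, and the members' median was -0.02. Relative to that median Cyp2f2 was still past 1.5-fold.

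In spleen 14 members passed, none was higher and 2 were lower, where 4.37% and 2.44% of 13076 genes were higher and lower. The lower genes were Cyp2e1 (1.72 TPM in WT and 1.03 TPM in Tug1-/-) and Cyp2t4 (1.47 and 0.929 TPM). The median over all genes was -0.10 there, and with ratios taken relative to it neither gene was past 1.5-fold. The members highest in WT spleen were Cyp4f18, a leukotriene hydroxylase of leukocytes (129 and 97.7 TPM), Cyp4f16 (31.7 and 29.2 TPM) and Cyp4v3 (29.6 and 24.9 TPM). Cyp2r1 had the highest ratio, 6.502 and 9.06 TPM (log2 ratio 0.47). A further 25 members were listed under 1 TPM, and 21 of them had ratios below 0, 14 past 1.5-fold. Among all 3760 protein-coding genes under that minimum in spleen, 65.5% had ratios below 0, 13.4% were past 1.5-fold lower and 6.97% past 1.5-fold higher. Hepatocyte genes moved the same way there: Alb had 16.4 TPM in WT and 0.0843 TPM in Tug1-/- spleen, and Apoa1 had 2.53 and 0.0234 TPM. All 7 hepatocyte genes were lower in mean, with sums of 24.5 and 0.709 TPM, whereas all 3 erythroid genes were past 1.5-fold higher, with sums of 19521 and 35130 TPM. The 5 sinusoidal endothelial genes (259.7 and 208 TPM in sum) and the 5 stellate cell genes (133 and 99.8 TPM) all had ratios below 0. The part of these cell types in the P450 values of spleen was not tested.

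In MEFs 8 members passed and none was past 1.5-fold, where 1.55% and 2.78% of 12105 genes were higher and lower. The highest were Cyp4f16 (29.98 TPM in WT and 29.2 TPM in Tug1-/-), Cyp4f17 (24.3 and 23.0 TPM) and Cyp2j6 (19.3 and 16.5 TPM). The members' log2 ratios ran from -0.22 to 0.37.

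In testes 20 members passed, 2 were higher and none was lower, where 1.93% and 2.85% of 15047 genes were higher and lower. The members highest in WT were Cyp2d26 (35.9 TPM in WT, 35.2 TPM in Tug1-/- and 31.7 TPM in rescue), Cyp4f39, a hydroxylase of very long fatty acids (15.9, 16.8 and 14.5 TPM), and Cyp4f37 (12.6, 12.0 and 11.7 TPM). Cyp2c55 had 7.61 TPM in WT, 14.2 TPM in Tug1-/- and 19.8 TPM in rescue testes. It was 1.86-fold higher in Tug1-/- than in WT, and its rescue mean was above the Tug1-/- mean. In liver the same gene was 1.503-fold lower. Cyp2e1 had 2.26, 3.56 and 2.98 TPM, 1.55-fold higher in Tug1-/- than in WT. Leydig cell genes, from the steroid-making cells of testes, summed to 335, 561 and 463 TPM, and the adipocyte list to 38.5, 56.3 and 43.0 TPM.

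Rescue was set against Tug1-/- testes as well, and this comparison shares the Tug1-/- libraries with the one before. Of 19 members that passed, none was higher and 2 were lower, where 0.114% and 2.12% of 14861 genes were higher and lower. Cyp4f15 had 2.54 TPM in WT, 2.15 TPM in Tug1-/- and 1.20 TPM in rescue testes. Cyp4f14 had 1.16 TPM in WT, 1.46 TPM in Tug1-/- and 0.909 TPM in rescue testes. Against WT, the Tug1-/- mean was thus lower for Cyp4f15 and higher for Cyp4f14. Both genes were lower in rescue than in Tug1-/-, Cyp4f15 by 1.73-fold and Cyp4f14 by 1.55-fold. Cyp2j13, under the minimum, had 0.911, 0.991 and 0.0744 TPM, so that WT and Tug1-/- stood together and rescue apart. It was among 33 members under the minimum in rescue against Tug1-/-, 10 with ratios above and 23 below 0. Of these 33, 0 were past 1.5-fold higher and 4 past 1.5-fold lower. The share over all genes under the minimum was not taken here.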

How the data were processed

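Total RNA was made into polyA-selected libraries and sequenced as 101-base read pairs. The authors used STAR to place reads on GRCm38 and featureCounts to count those with a unique position, and they dropped genes under 3 reads in every replicate. The submitters' processing notes also name CASAVA 1.8.2 and DESeq2. Whether counting used strand is not given in the sources used here. The deposited values used are the authors' mean TPM per group and, outside testes, their mean normalised count over both genotypes. The 2 tables also hold the authors' own fold changes, standard errors, test statistics and p-values, which were not used. Brain rows come from libraries outside this series and were not used, and 6 F1 hybrid testes samples were not analysed here. The tables give no values of single samples, so library depth is unknown and no replicate could be left out. No interval or test was computed from the group means.

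From the means, log2 ratios were computed with a pseudocount of 0.1 TPM for protein-coding genes averaging at least 1 TPM, and calls were made at 1.5-fold (Python 3.11.15, pandas 2.3.3, numpy 2.4.6). The calling step was run on WT means with known 2-fold changes put in and no noise. It finds these by construction, so the run checked the code and not the rate of false calls. Genes named are the 10 members highest in WT liver, members past 1.5-fold, up to 6 such members and the 3 highest in each other tissue, members at 1 TPM in all 7 tissues, and genes of the lists; other members were named to complete their subfamily, and Cyp2r1, the seventh in prostate, was named after its values were seen. Members and lists were chosen with earlier results of these data known. Clusters are runs of at least 3 listed members with gaps under 500000 bases. Shared 101-base windows were counted in GENCODE vM21 transcripts (the authors used vM16, same genome), and promoters are from RefSeq (GRCm38.p6), aligned with Biopython. Alternatives were pseudocounts of 0.01 and 1 TPM, no minimum, a minimum of 5 TPM, a minimum mean count of 20, centring on the median of all genes, a lower limit (25% higher or 20% lower) and a fold of 2, and, chosen after seeing the data, leaving out 10 members that share over 10% of their windows. A few marker genes of the lists are not reported here.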

Additional observations from a re-analysis of the deposited data

How the results depend on the processing

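The counts of members past 1.5-fold and the liver median were recomputed under each alternative, and the cause of each shift was not tested beyond what the alternative itself sets. At 2-fold, which calls fewer genes by construction, liver had 2 higher and 2 lower members, eyes 1, spleen 0, prostate 2, testes 0 and rescue against Tug1-/- 0. With the limit lowered to 25% higher or 20% lower, liver had 14 lower members, eyes 7, heart 4, spleen 10, MEFs 1, testes 4 and rescue 4. With a minimum of 5 TPM, which tests fewer genes, liver had 5 lower members, eyes 1, heart 0, spleen 0, prostate 4, testes 1 and rescue 0. With no minimum, which adds genes of few reads, eyes had 4, heart 2, spleen 17, MEFs 2, testes 6 and rescue 6. With a pseudocount of 1 TPM eyes had 1, spleen 0, testes 1 and rescue 0, and 9 of the 12 liver calls were kept. After centring on the median of all genes spleen had 0, and 11 of the 12 liver calls were kept. Leaving out members that share sequence left 2 higher in liver, without Cyp2a4 and Cyp4a32. The other 53 values stayed within 1.5 times the count, or within 0.1 of the liver median, which stayed below 0. No paired analysis was possible because the tables give no values of single samples, and no replicate could be left out for the same reason. The means of low genes such as Cyp2g1 and Cyp2t4 rest on few reads, with mean normalised counts of 69.5 in liver and 28.6 in spleen.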
